A study of Mus musculus with 6 samples.

Results

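The mRNAs of 10 NF-κB genes, 5 subunits (Nfkb1, Nfkb2, Rel, Rela and Relb) and 5 inhibitors (Nfkbia, Nfkbib, Nfkbie, Bcl3 and Tnfaip3), were compared in bone marrow–derived macrophages (BMDMs) with and without DRP1, the GTPase that divides mitochondria. The genes were listed by their role, and all 10 were measured, among 36137 genes with at least 1 transcript in the files. Each gene's level was the sum of the estimated counts of its transcripts, and all 10 were among the 18506 genes with at least 10 counts in total that were tested. They were set beside a wider list of 50 pathway genes and 38 genes known as NF-κB targets.

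The 3 Drp1KO libraries came from mice with LysM-Cre+/- and Drp1 fl/fl, and the 3 WT libraries from mice with LysM-Cre+/- and Drp1+/+. The Cre transgene was thus carried by both groups, and the groups differed by design in the Drp1 allele. Whether they also differed elsewhere in the genome was not tested. LysM-Cre acts in myeloid cells, and the study describes young adult mice of both sexes, with marrow of 2 mice pooled. BMDMs of day 7, grown with 10% L929 supernatant as a source of M-CSF, were moved to medium without serum at 2.1% oxygen for 8 hours (hypoxia serum starvation, HSS). These conditions are those of the labels, and the methods of the paper differ from them in the supernatant and oxygen percentages. No library was made from cells outside HSS, so the comparison asks how the genotypes differed under HSS and not what HSS did.

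NF-κB is a family of dimers built from the REL-domain proteins RelA, c-Rel, RelB, p50 (from Nfkb1) and p52 (from Nfkb2). In resting cells IκB proteins hold the dimers in the cytoplasm. IκB kinase marks IκB for destruction, the freed dimer enters the nucleus, and it binds κB sites in the promoters of inflammatory genes. Among its best-known targets are its own inhibitors, IκBα (Nfkbia) and A20 (Tnfaip3), which close the loop, and macrophages use this circuit in their response to microbial products and cytokines.

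Because feedback runs through κB sites, the 300 bases before each annotated start were searched on both strands for the classical 10-base κB consensus, in the GRCm39 genome that the files' transcripts were built on. Of the 10 members' canonical starts, 5 (50.0%) held at least 1 match, against 1086 of 21770 protein-coding genes (4.99%). The matches are shown because they mark which members carry the letters of a κB site next to their start. Capitals mark the match, each line reads 5′ to 3′ on the strand of the gene, and the flanks are the neighbouring genome.
Rel, 276 to 267 bases upstream, chr11:23721531-23721540, minus strand: ataaggctgcGGGGGTCCCCgtatgcaaat
Relb, 37 to 28 bases upstream, chr7:19363451-19363460, minus strand: gtgagcagcgGGGGTTTTCCcattcccttt
Nfkbia, 273 to 264 bases upstream, chr12:55539696-55539705, minus strand: atcgcccggtGGGAAACCCCagggaaagaa
Nfkbia, 29 to 20 bases upstream, chr12:55539452-55539461, minus strand: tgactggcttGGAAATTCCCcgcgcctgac
Nfkbie, 86 to 77 bases upstream, chr17:45866520-45866529, plus strand: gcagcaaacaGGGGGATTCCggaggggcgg
Tnfaip3, 97 to 88 bases upstream, chr10:18891274-18891283, minus strand: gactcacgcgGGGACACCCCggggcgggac

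Nfkbia was the member with 2 matches, which 130 of the 21770 windows (0.597%) also had. Its more distant match reads as the consensus on either strand. Its whole window, chr12:55539433-55539732 on the minus strand, is given since Nfkbia is also the member that passed the study's criteria in the comparison of the genotypes.
Nfkbia promoter: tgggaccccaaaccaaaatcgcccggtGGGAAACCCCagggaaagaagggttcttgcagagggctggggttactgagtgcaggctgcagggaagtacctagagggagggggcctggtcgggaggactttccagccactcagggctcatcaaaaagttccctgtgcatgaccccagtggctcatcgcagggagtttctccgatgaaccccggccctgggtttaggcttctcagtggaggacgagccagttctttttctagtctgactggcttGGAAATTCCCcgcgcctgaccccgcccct

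No match lay in the windows before the canonical starts of Nfkb1, Nfkb2, Rela, Nfkbib and Bcl3. For 3 members, Nfkb1, Nfkb2 and Tnfaip3, the transcript with the most counts began more than 300 bases from the canonical start, and of these 3 starts that of Nfkb2-208 had a match, 293 to 284 bases upstream. Relb-205, the leading transcript of Relb, begins just downstream of the canonical start, and the Relb match printed above lies in its window too.
Nfkb2-208, chr19:46294144-46294153, plus strand: tattttcGGGACTTTCCtaagcagcac

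The libraries held 23389488 to 32231206 estimated counts, and 3 counts, the lowest level read as detected, equal 0.0931 to 0.128 CPM (counts per 1000000). Dnm1l, which encodes DRP1, was at 69.9 to 75.1 CPM in WT and 58.7 to 66.3 CPM in Drp1KO libraries, with an adjusted p of 0.248 by edgeR, and a sum over transcripts cannot tell a floxed exon from the rest of the gene. On a principal component analysis, axis 1 (46.0% of the variance) separated the genotypes and axis 2 (29.5%) separated the 2 libraries numbered 1 from the other 4. The macrophage markers summed to 4119 to 4847 CPM in WT and 3752 to 4679 CPM in Drp1KO libraries, and 3 of the 6 passed the adjusted threshold by edgeR, Fcgr1 higher (log2 fold change 1.34) and Csf1r and Mertk lower (each -0.52). Neutrophil markers summed to 5.95 to 18.6 CPM in WT and 16.4 to 41.2 CPM in Drp1KO libraries. All 5 tested of 7 had a higher fitted level in Drp1KO, and Ly6g was at 0 in every library. By the study's criteria 3 of the 5 passed, against 12.7% of all genes. None passed the adjusted threshold by edgeR, and 3 did with the replicate number as a block, against 12.0% of all genes. Dendritic cell and fibroblast markers summed to at most 4.91 CPM and 2.80 CPM. The B cell list, nearly all of it Cd79b, summed to 3.54 to 5.61 CPM in WT and 5.63 to 6.81 CPM in Drp1KO libraries, which did not overlap. The T cell list summed to 309 to 325 CPM in WT and 125 to 251 CPM in Drp1KO libraries, nearly all of it from Cd4. The part of these markers in the results below was not tested. In bulk RNA, fewer cells of a type and less RNA per cell cannot be told apart.

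In order of level per transcript length, Tnfaip3 stood first and Relb last in both genotypes. In TPM (transcripts per 1000000, mean ± SD of 3 libraries), Tnfaip3 had 53.5 ± 11.3 in WT and 51.0 ± 6.45 in Drp1KO BMDMs, and Relb had 3.55 ± 0.967 and 2.21 ± 0.512. Between them in WT came Rela (39.8), Nfkbia (35.9), Nfkbib (29.6), Nfkb2 (25.2), Nfkb1 (23.1), Bcl3 (18.4), Rel (14.9) and Nfkbie (5.73). The WT libraries of each neighbouring pair overlapped, except between Nfkb1 and Bcl3, Bcl3 and Rel, and Rel and Nfkbie. In Drp1KO BMDMs the order was Tnfaip3, Rela (33.9), Nfkbib (28.0), Nfkbia (23.9), Bcl3 (23.1), Nfkb2 (22.9), Nfkb1 (19.3), Rel (15.3), Nfkbie (4.42) and Relb, and the 6 genes from Rela to Nfkb1 overlapped each with its neighbour. Nfkbia thus held place 3 in WT and place 4 in Drp1KO BMDMs.

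**Figure D1:**
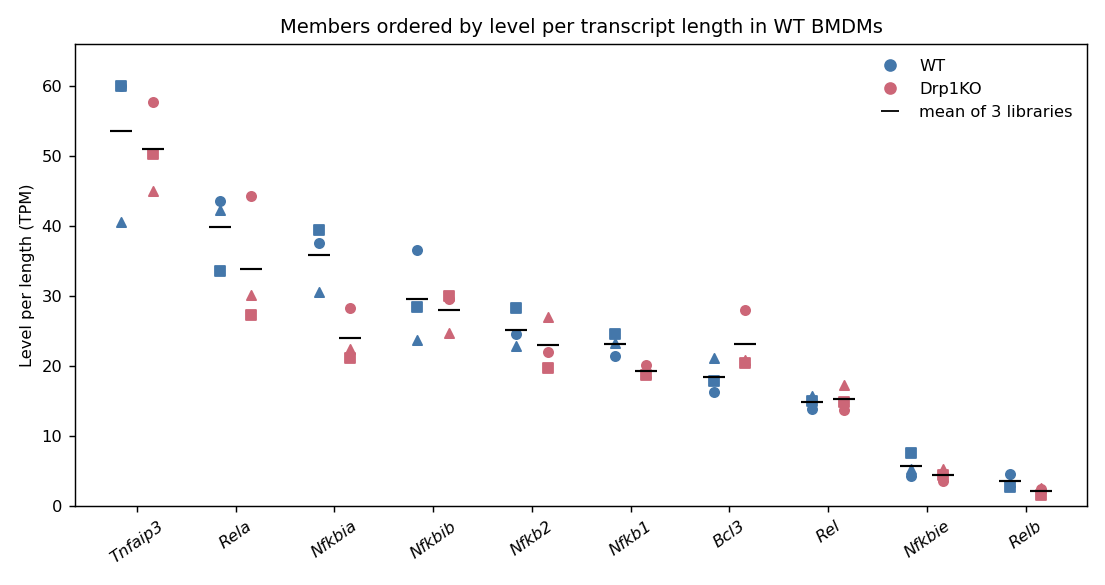
The vertical axis gives the level per transcript length in TPM as deposited, and the horizontal axis lists the members in the order of their WT mean. Each point is 1 library (circle, square and triangle for libraries 1, 2 and 3) and each line the mean of 3; Nfkbia has WT points at 30.6 to 39.4 and Drp1KO points at 21.1 to 28.3.

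None of the 5 subunits passed the study's criteria or the adjusted threshold in the edgeR fit of summed counts, and 4 of them had a fitted level below that of WT. Under other settings Relb passed the study's criteria with the replicate block and with length-scaled counts, and Nfkb2 passed them with protein-coding transcripts alone. Rela, whose protein RelA (p65) carries the transactivation domain of the classical dimer, lies on chromosome 19 (5687493 to 5698161, plus strand). It had 52.0, 45.9 and 45.7 CPM in WT libraries 1 to 3 and 55.8, 40.1 and 40.1 CPM in Drp1KO libraries 1 to 3. Libraries 1 were the higher ones in both groups, and the groups overlapped, with a log2 fold change (Drp1KO relative to WT) of -0.08 ± 0.139 (SE; edgeR adjusted p = 0.861). Nfkb1, the precursor of p50 (chromosome 3, 135290264 to 135397742, minus strand), had 54.9, 59.9 and 53.2 CPM in WT and 56.3, 49.8 and 50.1 CPM in Drp1KO libraries. Only Drp1KO library 1 lay within the WT range, and the difference was -0.11 ± 0.0981 (adjusted p = 0.682).

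Rel encodes c-Rel, a subunit of lymphoid and myeloid cells (chromosome 11, 23686847 to 23721264, minus strand), and had 65.9, 70.1 and 68.5 CPM in WT and 68.8, 72.3 and 80.7 CPM in Drp1KO libraries. It was 1 of the 2 members higher in Drp1KO in each of the 3 number-matched pairs of libraries, at 0.12 ± 0.0955 (adjusted p = 0.630), and the groups overlapped. For Nfkb2, the precursor of p52 in the noncanonical branch (chromosome 19, 46292759 to 46303812, plus strand), the levels were 67.1, 77.9 and 60.2 CPM in WT and 62.3, 54.0 and 69.1 CPM in Drp1KO libraries. The 3 pairs differed in direction, and the difference was -0.15 ± 0.126 (adjusted p = 0.656). Relb, the partner of p52 (chromosome 7, 19339017 to 19363425, minus strand), was the least abundant subunit, with 88 to 154 estimated counts a library. Its levels were 6.64, 4.54 and 4.53 CPM in WT and 3.995, 3.15 and 4.66 CPM in Drp1KO libraries. Drp1KO library 3 was above 2 of the WT libraries, and the difference of -0.41 ± 0.223 did not pass by edgeR (unadjusted p = 0.0959, adjusted p = 0.414). With the replicate block it was -0.40, with an unadjusted p of 0.0472 that passed the study's criteria and an adjusted p of 0.193 that did not pass. With 1 library left out it ran from -0.55 to -0.21, and was -0.21 without WT library 1 and -0.26 without Drp1KO library 2. With protein-coding transcripts alone it was -0.33 ± 0.693 (SE, unadjusted p = 0.642 by edgeR).

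Among the inhibitors, Nfkbia, which encodes IκBα, the main inhibitor of RelA dimers, had the largest difference of the 10 members in the edgeR fit and was lower in Drp1KO BMDMs. Relb had a larger one with length-scaled counts (-0.61 against -0.50), without WT library 2 (-0.52 against -0.43) and without Drp1KO library 3 (-0.55 against -0.43), and Nfkbie without WT library 1 (-0.46 against -0.44). It lies on chromosome 12 (55535332 to 55539432, minus strand) and had 41.9, 43.3 and 30.9 CPM in WT and 33.5, 24.0 and 24.8 CPM in Drp1KO libraries. WT library 3 was below Drp1KO library 1, so the groups overlapped, while in each pair of libraries with the same number Drp1KO was the lower, by a log2 difference of -0.32, -0.85 and -0.32; 22.1% of all genes were lower in all 3 pairs. The fold was 0.708 (log2 fold change -0.50 ± 0.164, n = 3 a group), which passed the study's criteria (a fold change beyond 0.32 on the log2 scale in either direction, and an unadjusted p under 0.05) with an unadjusted p of 0.0123 by edgeR and did not pass after adjustment over all genes (adjusted p = 0.148). With the replicate number as a block, the adjusted p was 0.0152. An exact two-sided permutation test of the CPM values alone gave p = 0.2, where 0.1 is the smallest p that 3 libraries against 3 allow.

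The call on Nfkbia turned on single libraries. Over 16 other settings its log2 fold change ran from -0.67 to -0.41 and was negative in every one, the unadjusted p was under 0.05 in 14 of them, and the adjusted p ran from 0.0152 to 0.420. Without Drp1KO library 1 the adjusted p was 0.0396, and without libraries 1 of both groups 0.0339. Without WT library 2 it was 0.420, and without Drp1KO library 2 it was 0.419, and those were the 2 settings in which the unadjusted p missed 0.05 (0.0516 and 0.0560).

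The other IκB genes had smaller fitted differences. Nfkbib, for IκBβ (chromosome 7, 28457486 to 28466937, minus strand), had 36.8, 28.9 and 22.6 CPM in WT and 31.6, 31.3 and 24.9 CPM in Drp1KO libraries. Its group means, 29.5 and 29.3 CPM, were nearly equal, at -0.01 ± 0.172 (adjusted p = 0.993), a sign that changed under 6 of 16 other settings. Nfkbie, for IκBε (chromosome 17, 45866585 to 45874661, plus strand), had 8.41, 15.1 and 9.88 CPM in WT and 7.67, 9.01 and 10.5 CPM in Drp1KO libraries. WT library 2 stood above the other 5 libraries, and the difference was -0.30 ± 0.217 (adjusted p = 0.575) and -0.03 without that library. Without WT library 1 it was -0.46 and passed the study's criteria (unadjusted p = 0.0489 by edgeR). Whether Nfkbia differed from Nfkbib in its response was not tested.

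Bcl3 encodes a nuclear IκB protein that works with p50 and p52 dimers (chromosome 7, 19541553 to 19557570, minus strand), and had 19.8, 18.4 and 17.4 CPM in WT and 23.6, 19.3 and 19.8 CPM in Drp1KO libraries. It was the other member higher in Drp1KO in each number-matched pair, at 0.17 ± 0.121 (adjusted p = 0.546), and the groups overlapped only where Drp1KO library 2 lay below WT library 1. With length-scaled counts Bcl3 was at 0.42 and passed the study's criteria (unadjusted p = 0.0316 by edgeR). Tnfaip3 encodes A20, a ubiquitin-editing enzyme that shuts off signalling to IκB kinase (chromosome 10, 18874201 to 18891405, minus strand). It had 152, 138 and 94.0 CPM in WT and 148, 127 and 111 CPM in Drp1KO libraries. Library 1 was the highest and library 3 the lowest of each group, and the means differed by a log2 fold change of 0.01 ± 0.172 (adjusted p = 0.990).

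**Figure D2:**
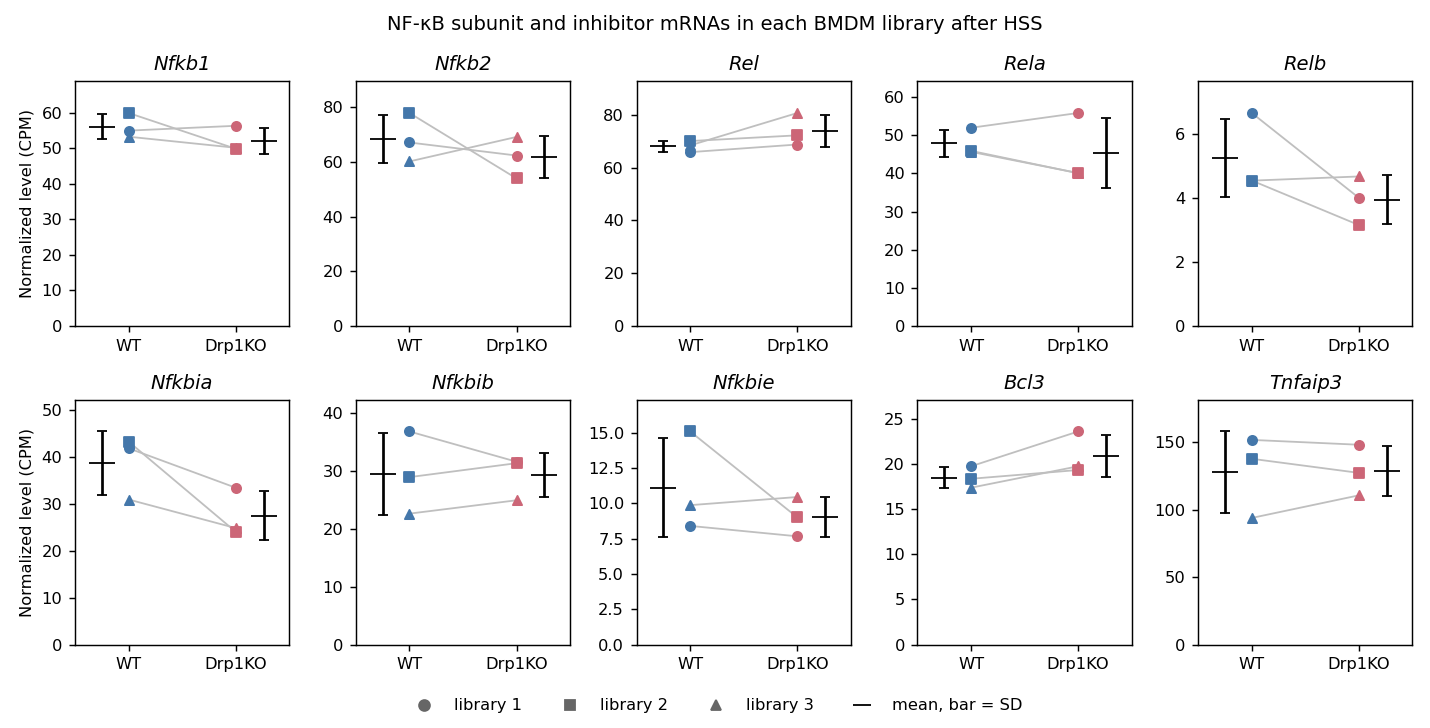
Each panel gives 1 member, with the normalized level in CPM on the vertical axis from 0 and the 2 genotypes on the horizontal axis. Points are libraries, joined where they share a replicate number, and black marks give the mean with its SD; the 3 joined lines of Nfkbia all go down from WT to Drp1KO, and the ranges of the 2 groups overlap in each panel.

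In the whole set, 1 of 10 members (Nfkbia, lower) passed the study's criteria, where 12.7% of all genes tested did, and 5.48% in that direction (7.19% in the other). No member had an adjusted p under 0.05 by edgeR or by DESeq2, where 3.36% of all genes did by edgeR, and 1 had an unadjusted p under 0.05 by edgeR, where 16.4% of all genes did. With the replicate block 1 member, Nfkbia, passed, where 12.0% of all genes did, and 5.22% in that direction. All 3 number-matched pairs differed in 1 direction for 3 members, Rel, Nfkbia and Bcl3, against 46.2% of all genes. None of the 10 had CPM ranges that kept the genotypes apart, against 21.9% of all genes. TPM is per transcript length and lacks the further scaling between libraries that the CPM values have. In TPM the groups were apart for 3 of the 10, Nfkb1, Relb and Nfkbia, all lower in Drp1KO, against 21.7% of all genes. The median log2 fold change was -0.09 over the members, with 3 above and 7 below 0, and 0.0046 over all genes tested, of which 49.4% were below 0.

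**Figure D3:**
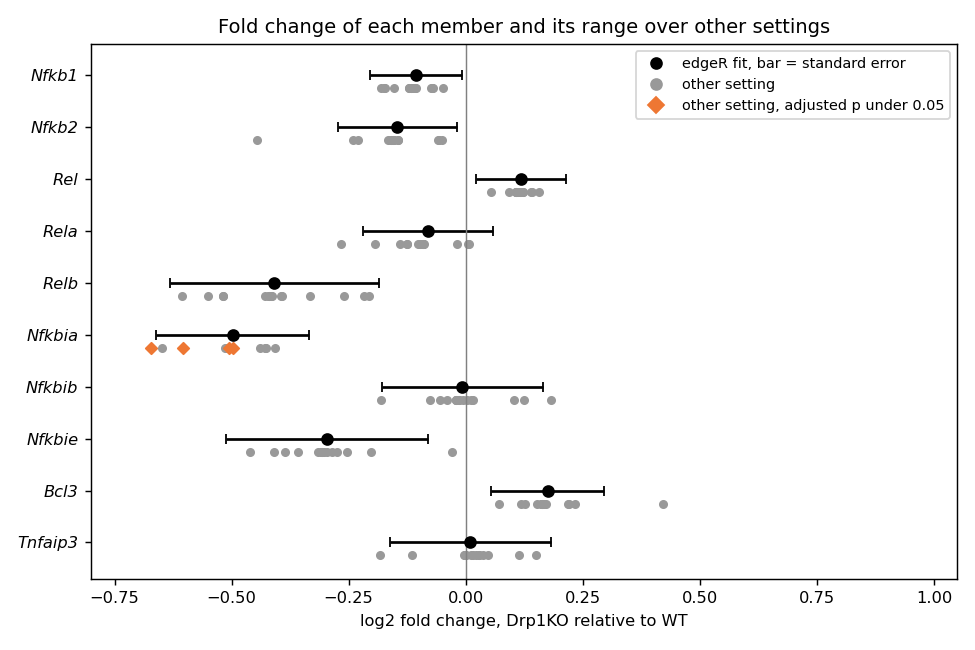
The horizontal axis gives the log2 fold change of Drp1KO relative to WT, with 1 line per member. Black points are the edgeR fit with its standard error and grey or orange points the 16 other settings; orange marks an adjusted p under 0.05 and is seen for Nfkbia alone, in 4 settings.

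The balance of inhibitor to subunit mRNA was read within each library, since a ratio inside a library needs no scaling between libraries. In TPM, Nfkbia over Rela was 0.862, 1.17 and 0.722 in WT and 0.640, 0.773 and 0.743 in Drp1KO libraries. The sum of the 3 IκB genes over the sum of the 5 subunits was 0.727, 0.724 and 0.554 in WT and 0.599, 0.674 and 0.544 in Drp1KO libraries. Both ratios overlapped between the groups, with WT library 3 among the Drp1KO values. Within the number-matched pairs, IκB over subunits was lower in Drp1KO in all 3, and Nfkbia over Rela in pairs 1 and 2. Relb over Rela was 0.105, 0.0800 and 0.0795 in WT and 0.0538, 0.0601 and 0.0867 in Drp1KO libraries, which also overlapped. The Relb sum includes retained-intron transcripts, so this ratio is not one of coding mRNA alone.

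A gene-level sum can hide a change in which transcript is made, so the share of each transcript in its gene's estimated counts was compared next. Of the 55 transcripts of the 10 genes, 27 held on average at least 5% of their gene, and for 24 of these the average was at most 95%, so that the share could vary. For 8 of the 24 (33.3%), in 4 genes, the shares of the 2 genotypes did not overlap, against 22.9% of 20470 transcripts handled in the same way. Shares within a gene sum to 100%, so the transcripts of a gene are not independent, and an exact permutation test of 3 libraries against 3 cannot go below p = 0.1.

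Nfkb2 had 3 such transcripts. Its coding transcript Nfkb2-206 made up 41.5%, 41.7% and 45.8% of the gene in WT and 30.0%, 27.5% and 23.3% in Drp1KO libraries. The canonical coding transcript Nfkb2-201 was the higher in Drp1KO, with 4.62%, 3.19% and 4.79% in WT and 18.7%, 17.6% and 7.17% in Drp1KO libraries. So was Nfkb2-208, annotated as a target of nonsense-mediated decay, with 42.6%, 41.8% and 36.5% in WT and 43.7%, 48.7% and 61.7% in Drp1KO libraries. With only protein-coding transcripts counted, the gene's log2 fold change was -0.45, against -0.15 with all transcripts. The value of -0.45 passed the study's criteria (unadjusted p = 0.00659 by edgeR) and not the adjusted threshold (adjusted p = 0.0936). Part of the gene overlaps genes on the other strand, Psd and 4833438C02Rik, and whether strand was used in the quantification is not given in the sources used here.

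For Tnfaip3 the transcripts 201 and 202 differ in their first exon and start 3475 bases apart. Tnfaip3-201 held 55.5%, 47.9% and 49.4% in WT and 39.9%, 42.5% and 27.2% in Drp1KO libraries, and Tnfaip3-202 held 37.0%, 40.0% and 40.3% in WT and 52.9%, 47.8% and 60.7% in Drp1KO libraries. The gene's summed level differed by 0.01 ± 0.172 on the log2 scale, and its division between the 2 starts did not overlap between the genotypes. The κB match printed above lies before the start of Tnfaip3-201, and the window before Tnfaip3-202 had none. Bcl3-203, a 755-base coding transcript of 3 exons at the 3′ end of the gene, held 8.93%, 14.4% and 12.2% in WT and 31.3%, 21.2% and 20.4% in Drp1KO libraries, and the full-length Bcl3-201 held 81.8% ± 5.35 and 68.7% ± 7.28 (SD, n = 3). Nfkb1-201, the canonical transcript, held 31.6%, 19.8% and 21.7% in WT and 39.1%, 34.7% and 40.7% in Drp1KO libraries.

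For the other members the shares overlapped or there was nothing to share. Rel, Nfkbia and Nfkbib each came from 1 transcript with 97.99% or more of the gene in every library, so the lower Nfkbia level is that of a single transcript, Nfkbia-201. Rela-201 held 82.5% ± 4.46 in WT and 81.8% ± 4.27 in Drp1KO BMDMs. The estimated counts of Relb were spread over 7 transcripts, led by the retained-intron transcript Relb-205 with 34.6% ± 17.4 and 40.5% ± 36.3, and with at most 154 counts a library this spread is too wide to compare. These shares are estimates that kallisto made from reads that fit more than 1 transcript, and reads across single junctions were not analysed here.

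**Figure D4:**
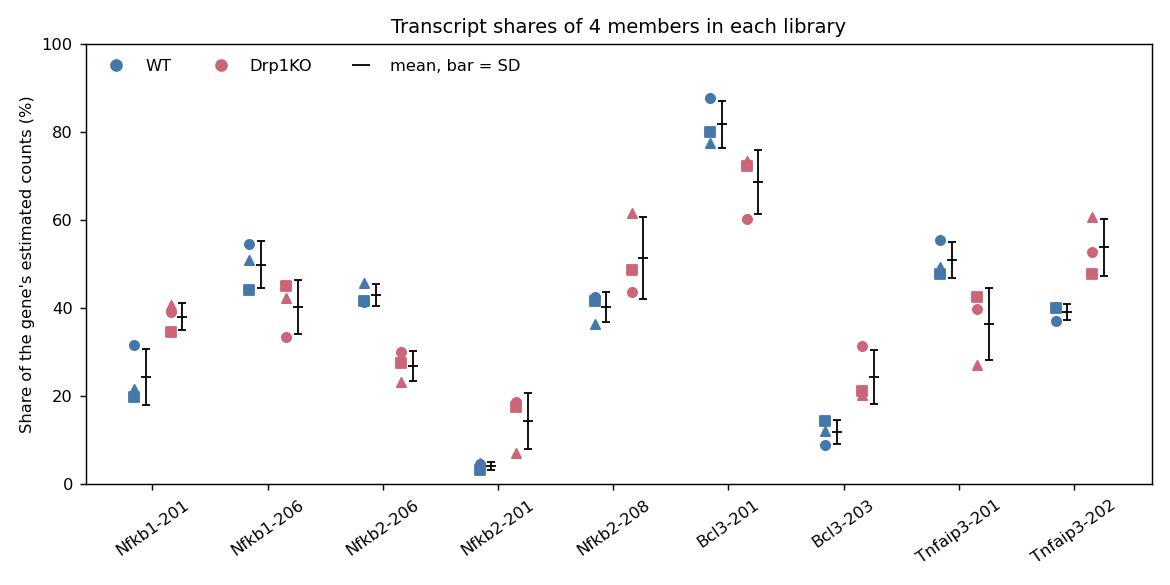
The vertical axis gives the share of a gene's estimated counts in percent, and the horizontal axis 9 transcripts of Nfkb1, Nfkb2, Bcl3 and Tnfaip3. Points are libraries (shapes as the replicate number) and black marks the mean with its SD; of those drawn, Nfkb1-206 alone overlaps between the genotypes, with shares of 44.1% to 54.6% in WT and 33.4% to 45.1% in Drp1KO libraries.

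The rest of the pathway was described from 50 genes, 31 kinases and adaptors that carry the signal from receptors to IκB kinase and 19 other inhibitors and feedback genes. Of the 50, all tested, 25 had a higher and 25 a lower fitted level in Drp1KO, with a median log2 fold change of -0.0003. By the study's criteria 4 (8%) passed, 3 higher and 1 lower, against 12.7% of all genes, and by adjusted p no gene passed with edgeR, 9 had an unadjusted p under 0.05 against 16.4% of all genes, and 3 passed with DESeq2 against 6.24% of all genes. With the replicate block 8 passed, 6 higher and 2 lower, against 12.0% of all genes. Of the kinases and adaptors 18 were higher and 13 lower in fitted level, and of the other inhibitors and feedback genes 7 higher and 12 lower.

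Irak4, the kinase that starts the signal at the MyD88 complex, was at 63.3 to 66.6 CPM in WT and 46.1 to 54.5 CPM in Drp1KO libraries. The groups did not overlap, and the log2 fold change was -0.37 ± 0.0969 (edgeR adjusted p = 0.0760, with the block 0.0161). Irak2, whose protein joins the same complex, was at 29.6 to 37.1 CPM in WT and at 38.8 to 56.4 CPM in Drp1KO libraries, a difference of 0.48 ± 0.152 (adjusted p = 0.137, with the block 0.0059). Birc2, a ubiquitin ligase (cIAP1) that acts in both branches, was at 0.29 ± 0.117 (adjusted p = 0.245, with the block 0.0494), with 32.9 to 37.0 CPM in WT and 36.3 to 46.8 CPM in Drp1KO libraries.

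In the list of other inhibitors and feedback genes, Nfkbiz had the largest positive difference in the edgeR fit. Nfkbiz encodes the nuclear protein IκBζ, listed here as a cofactor of the NF-κB family. It had 31.2 to 50.8 CPM in WT and 56.2 to 72.0 CPM in Drp1KO libraries. Its groups did not overlap, and the log2 fold change of 0.60 ± 0.168 missed the adjusted threshold (adjusted p = 0.0924) and passed with the block (0.0077). Pdlim2, a nuclear ubiquitin ligase for RelA, was at 6.41 to 7.46 CPM in WT and 9.51 to 9.93 CPM in Drp1KO libraries (0.53 ± 0.137, adjusted p = 0.0705, with the block 0.0153). Rnf11, a subunit of the A20 complex, had a log2 fold change of 0.26 ± 0.102 (adjusted p = 0.239, with the block 0.0495). Nfkbid, another nuclear IκB, had -0.27 ± 0.226 (adjusted p = 0.640).

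Of 38 known target genes 36 were tested, Il12b and Csf3 being under the filter. The fitted level of 28 was higher and of 8 lower in Drp1KO, with a median log2 fold change of 0.18. By the study's criteria 9 (25%) passed, 7 higher and 2 lower, against 12.7% of all genes (7.19% higher and 5.48% lower), and by adjusted p 4 (11.1%), against 3.36% of all genes. Higher were 3 of the 4 (background 2.29%) and lower 1 (1.06%). The chemokine gene Ccl5 rose, with 1.70 to 3.32 CPM in WT and 5.40 to 7.21 CPM in Drp1KO libraries (1.31 ± 0.248, edgeR adjusted p = 0.0203), and Csf1, for the growth factor M-CSF, rose, with 12.7 to 13.5 CPM and 17.2 to 20.9 CPM (0.58 ± 0.121, adjusted p = 0.0315). Bcl2a1d, of a family of survival genes, was at 1.53 to 2.07 CPM in WT and 3.77 to 4.68 CPM in Drp1KO libraries (1.19 ± 0.213, adjusted p = 0.0155). But near-identical copies share its reads, and its copy Bcl2a1b passed the adjusted threshold under no setting tried. Vcam1, an adhesion molecule, fell, with 41.2 to 110 CPM in WT and 22.0 to 24.1 CPM in Drp1KO libraries (-1.49 ± 0.312, adjusted p = 0.0305). WT library 1, at 110 CPM, stood above WT libraries 2 and 3, at 46.4 and 41.2 CPM. Without libraries 1 of both groups the log2 fold change of Vcam1 was -0.93 (edgeR adjusted p = 0.00094). None of the 4 target calls held without WT library 2 or without Drp1KO library 2, 1 (Vcam1) held without WT library 3, 2 (Ccl5 and Bcl2a1d) without Drp1KO library 1, and all but Vcam1 without Drp1KO library 3. With the replicate block 7 targets passed, 6 higher and 1 lower, against 12.0% of all genes. Tnf, the cytokine that both activates and follows NF-κB, was at 9.06 to 12.9 CPM in WT and 11.3 to 12.6 CPM in Drp1KO libraries (0.14 ± 0.151, adjusted p = 0.749), and was chosen after its values were seen. Beside the targets, the neutrophil marker sums given above ran to 41.2 CPM in Drp1KO and 18.6 CPM in WT libraries, and their part in the target levels was not tested.

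**Figure D5:**
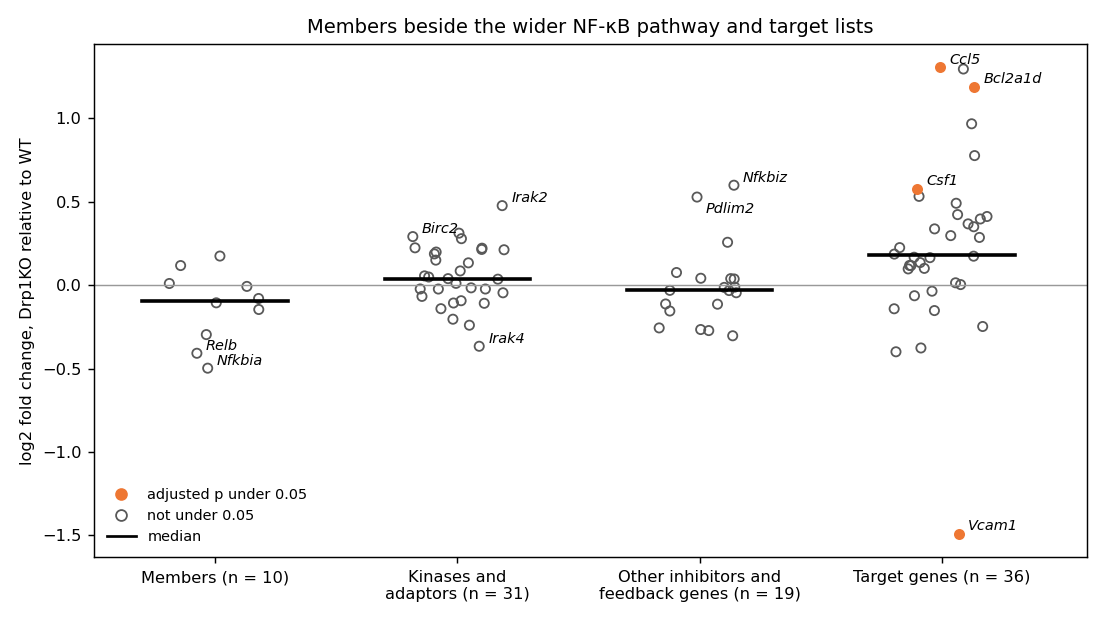
The vertical axis gives the log2 fold change of Drp1KO relative to WT for each tested gene of 4 lists set along the horizontal axis, with points spread sideways for legibility. Filled points passed an adjusted p of 0.05, and black lines give the list medians, -0.09 for the members and 0.18 for the targets.

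The genes most like Nfkbia across the 6 libraries were found by the root mean square difference of their centred log2 CPM, over 12247 genes averaging 1 CPM or more. They were Haghl (0.0600), Clec1b (0.0782) and Il11ra1 (0.0801), and their lower fitted level in Drp1KO follows from this choice. Il11ra1 has near-identical copies that can share its reads. Of the other members Rela came nearest, at 0.244, as number 1298 in that order.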

How the data were processed

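RNA-seq of 3 WT and 3 Drp1KO BMDM libraries after HSS was used. The authors quantified paired-end reads of poly(A) RNA with kallisto 0.46.1 on Ensembl cDNA of GRCm39, and deposited an estimated count and a TPM value per transcript and library. The estimated counts are not scaled between libraries. Here 116159 of 116873 transcripts (99.4%) matched GENCODE vM39 by identifier, and counts were summed per gene and rounded. The 0.542% to 0.575% of counts on other transcripts were left out.

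Genes with at least 10 counts in total were tested with edgeR 4.0.16 (TMM, quasi-likelihood, no covariate) in R 4.3.3. Standard errors were derived from the fold change and the F statistic of that test. Thresholds were the study's and a Benjamini-Hochberg adjusted p of 0.05. The test was first run on simulated counts with known changes. Replicates are labelled biological, but separate pools are not stated, so p-values measure the spread between these libraries. The numbers 1 to 3 were taken to pair the libraries, since deviations of same-numbered libraries correlated at 0.510, 0.204 and 0.298 over 12248 genes. This is a check from the data. WT library 2 with Drp1KO library 3 reached 0.326, so the check does not settle how libraries 2 and 3 pair. No 2 libraries of the same genotype were copies by a chi-square test of the counts. Other settings were DESeq2 1.42.0, limma-voom (limma 3.58.1), DESeq2's size factors in edgeR, library size alone, filterByExpr, no filter beyond 1 count, length-scaled counts, protein-coding transcripts alone, the replicate block and each library left out. Leaving out libraries 1 of both groups was added after seeing the data.

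The members and lists were chosen with earlier results of these data known. Genes were named by rule: in each list those with an adjusted p under 0.05, or else the 3 with the smallest p, with Nfkbiz and Nfkbid always given, and the 3 nearest in profile to Nfkbia. Annotated lengths differ from those in the files for 13 of the 27 main transcripts. Counting error alone does not cover the spread between libraries. Promoter windows were read from GRCm39 at GENCODE starts. Proteins were not analysed here.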

Additional observations from a re-analysis of the deposited data

How the results depend on the processing

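Of the 10 members, Nfkb1, Nfkb2, Rel, Relb, Nfkbia, Nfkbie and Bcl3 kept their direction under all 16 settings, and Rela, Nfkbib and Tnfaip3 did not. Rela had a log2 fold change of 0.0062 without Drp1KO library 2 and 0.0047 without Drp1KO library 3 (range over single libraries left out -0.27 to 0.0062). Nfkbib was at 0.016 with limma-voom, 0.0018 with length-scaled counts, 0.012 with the replicate block and 0.12 without libraries 1 of both groups, and ran from -0.18 to 0.18 with 1 library left out. Tnfaip3 was at -0.0022 with DESeq2 and with median-of-ratios size factors, -0.0013 with library size alone and -0.0027 with filterByExpr, and ran from -0.18 to 0.15 with 1 library left out. Nfkbia passed the adjusted threshold with no filter (-0.51), with the replicate block (-0.50) and without libraries 1 of both groups (-0.60), and over single libraries left out its log2 fold change ran from -0.67 to -0.41. Members past the adjusted threshold were then 1 in each of these settings (4.43%, 12.0% and 10.5% of all genes passed) and 0 to 1 with 1 library left out (1.0% to 4.96%). Members past the study's criteria were 3 with length-scaled counts (13.6% of all genes passed), 2 with protein-coding transcripts alone (14.2%), 2 with the block (15.4%) and 0 to 2 with 1 library left out (10.7% to 15.2%). Of the wider pathway, adjusted calls were 3 with DESeq2 (6.24% of all genes), 1 with library size alone (3.95%), 2 with no filter, 8 with the block, 8 without libraries 1 and 0 to 1 with 1 library left out (shares of all genes as for the members), and calls by the study's criteria were 10 without libraries 1 (17.3%). Adjusted target calls were 7 with the block and 0 to 5 with 1 library left out, and those by the study's criteria 5 to 10, with the same shares of all genes as for the members. Over all genes, adjusted calls higher and lower in Drp1KO were 663 and 492 with DESeq2, 645 and 420 with no filter, 1246 and 966 with the block, 1064 and 816 without libraries 1, and 139 to 526 and 42 to 413 with 1 library left out. The cause of these differences was not tested. The 2 members with the block were Nfkbia and Relb, and beyond these the pairing changed no call of a member. Relb had the fewest counts of the members, 88 to 154 a library.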
